A study of Homo sapiens with 12 samples.

Results

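The collagen chains of 2 human neuroblastoma (NB) cell lines were the 44 genes, of 58735 rows in each table, whose name is COL, a number, A and a number. RNA-Seq was available for KELLY, a MYCN amplified line, and SK-N-AS, which is MYCN non-amplified, with 3 samples per group. Cells were given DMSO or Erastin, which blocks the exchange of glutamate for cystine and so induces ferroptosis, and all were taken at 24 h. The Erastin dose was 1 µM in KELLY and 2 µM in SK-N-AS, so dose and line cannot be told apart, and each MYCN state is represented by 1 line.

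Collagens are the main structural proteins of the extracellular matrix. Each molecule is wound from alpha chains in a rope-like helix, and the chains are hydroxylated in the endoplasmic reticulum, secreted, trimmed and crosslinked. Fibrillar collagens form the tensile fibres of stroma, type IV forms the sheets of basement membranes, type VI forms beaded filaments around cells, and fibril-associated, network, anchoring and membrane-spanning collagens join these structures to each other or to cells. In neuroblastic tumours most fibrous stroma is laid down by Schwann-like and fibroblast cells, while NB cell lines are grouped into adrenergic and mesenchymal states, of which the mesenchymal state is known for matrix genes.

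Total counts lay between 24169796 and 29835670 per sample. MYCN had 130503, 140263 and 145326 reads with DMSO in KELLY and 11, 7 and 11 in SK-N-AS, the line that the study lists as non-amplified. Of the adrenergic markers, 7 of 7 were higher in KELLY (edgeR quasi-likelihood test, Benjamini-Hochberg adjusted p under 0.05). Of the mesenchymal markers, 7 of 7 were higher in SK-N-AS in the same test. Among all 17089 genes tested, 30.9% were called higher in KELLY and 30.3% higher in SK-N-AS. WWTR1, with at most 3 reads in a KELLY DMSO sample, passed the filter on low counts through SK-N-AS alone and had to differ. The adrenergic markers summed to 2258 to 3772 CPM (reads scaled to a common library size) with DMSO in KELLY and 936.5 to 1025 in SK-N-AS, so neither line lacked them. The mesenchymal markers summed to 139.8 to 160.2 CPM in KELLY and 2381 to 2761 in SK-N-AS. The Schwann cell markers SOX10 and S100B had at most 2 reads in any of the 12 samples, and the endothelial marker CDH5 had at most 2, while VWF, another endothelial marker, had 69 to 93 in KELLY. PTPRC, the leukocyte antigen CD45, had 13241, 13452 and 16496 reads with DMSO in SK-N-AS and 0 in all 6 KELLY samples, while CD3E had 0 in all 12. The part of these markers in the collagen differences was not tested. The replicate samples come from wells treated in triplicate, so p-values measure the spread between those wells.

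The chains fall into 11 fibrillar, 6 basement membrane type IV, 5 beaded filament type VI, 10 fibril-associated, 3 hexagonal network, 4 transmembrane and 2 multiplexin members, with COL7A1 as the anchoring fibril chain and COL26A1 and COL28A1 apart from these classes. All 6 type IV genes lie in head-to-head pairs that are read away from a shared stretch of DNA. COL4A1 and COL4A2 start 127 bp apart on chromosome 13 (GRCh38), COL4A3 and COL4A4 start 419 bp apart on chromosome 2, and the main starts of COL4A5 and COL4A6 lie 1416 bp apart on chromosome X. These starts are shown because COL4A1 and COL4A2 were read in both lines while COL4A5 and COL4A6 were read almost only in SK-N-AS. Each window runs from 250 bases before a start to 50 bases from it on, as given by RefSeq on GRCh38.p14, and capitals mark CCAAT or GGGCGG in either direction. TATAAA was searched as well and is in none of the 4 windows.

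COL4A1, chr13:110307108-110307407, minus strand: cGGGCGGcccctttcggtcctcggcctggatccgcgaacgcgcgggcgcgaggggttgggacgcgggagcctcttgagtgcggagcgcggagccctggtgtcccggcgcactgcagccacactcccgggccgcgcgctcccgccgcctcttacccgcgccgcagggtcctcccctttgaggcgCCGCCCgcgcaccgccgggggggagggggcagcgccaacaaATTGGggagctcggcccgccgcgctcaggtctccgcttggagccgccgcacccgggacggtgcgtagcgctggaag

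COL4A5, chrX:108439588-108439887, plus strand: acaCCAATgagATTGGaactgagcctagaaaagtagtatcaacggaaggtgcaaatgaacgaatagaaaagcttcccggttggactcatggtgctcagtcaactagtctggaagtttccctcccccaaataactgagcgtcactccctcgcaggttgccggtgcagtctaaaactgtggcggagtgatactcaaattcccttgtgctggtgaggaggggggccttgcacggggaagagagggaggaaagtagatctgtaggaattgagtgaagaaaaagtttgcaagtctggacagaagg

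COL4A6, start nearer to COL4A5, chrX:108439409-108439708, minus strand: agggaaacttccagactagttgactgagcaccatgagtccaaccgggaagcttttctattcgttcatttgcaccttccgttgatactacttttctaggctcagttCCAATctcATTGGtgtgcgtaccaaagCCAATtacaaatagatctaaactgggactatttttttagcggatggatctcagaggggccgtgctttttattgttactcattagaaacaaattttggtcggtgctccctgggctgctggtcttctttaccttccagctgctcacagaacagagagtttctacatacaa

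COL4A6, other start, chrX:108438373-108438672, minus strand: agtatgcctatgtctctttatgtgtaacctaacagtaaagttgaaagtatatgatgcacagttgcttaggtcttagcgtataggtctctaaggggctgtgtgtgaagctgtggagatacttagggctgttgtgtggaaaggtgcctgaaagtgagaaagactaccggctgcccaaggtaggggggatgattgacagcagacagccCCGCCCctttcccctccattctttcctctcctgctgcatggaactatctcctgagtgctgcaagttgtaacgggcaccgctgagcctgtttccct

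The COL4A1 window overlaps that of COL4A2 by 226 bases and was rich in CpG, with 45 CpG sites, a number that 3.48% of the 35116 promoter windows in the RefSeq table reach. The COL4A5 window held 8 CpG sites, and the COL4A6 windows held 7 and 5, against a median of 14 over all windows. The COL4A6 window nearer to COL4A5 overlaps the COL4A5 window by 121 bases, and the pair of facing CCAAT letters at the left end of the COL4A5 sequence is the same DNA as a pair in that COL4A6 window. CCAAT was present in 34.6% of all windows, GGGCGG in 45% and TATAAA in 11.5%. RefSeq windows were held for 32 of the 44 chains. Such matches describe the letters only.

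The first comparison asked how the collagen genes differ between the lines with DMSO. SK-N-AS cells held far more collagen RNA: the 44 chains took 0.701%, 0.601% and 0.544% of all counts in its DMSO samples and 0.0408%, 0.0557% and 0.0481% in those of KELLY. COL1A1 and COL3A1, the chains of the common stromal fibres, were higher in SK-N-AS by 7.58 and 9.54 on the log2 scale, and COL2A1 and COL11A1, known as cartilage fibre chains, were read almost only in KELLY. In bulk RNA, fewer cells that read a gene and less RNA per cell cannot be told apart. Of the 44 chains, 29 passed the filter on low counts, of which 17 were higher in SK-N-AS and 8 were higher in KELLY at an adjusted p under 0.05. Over all 17089 genes tested, 30.3% were called higher in SK-N-AS and 30.9% higher in KELLY. A chain that passed the filter through its high line alone had to differ, so these counts describe the members and do not weigh them against other genes. The 4 tested chains without a call were COL8A2, COL9A2, COL9A3 and COL11A2. The other 15 chains were not tested and had at most 18 reads in a DMSO sample, a value reached by COL4A3 in KELLY.

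**Figure D1:**
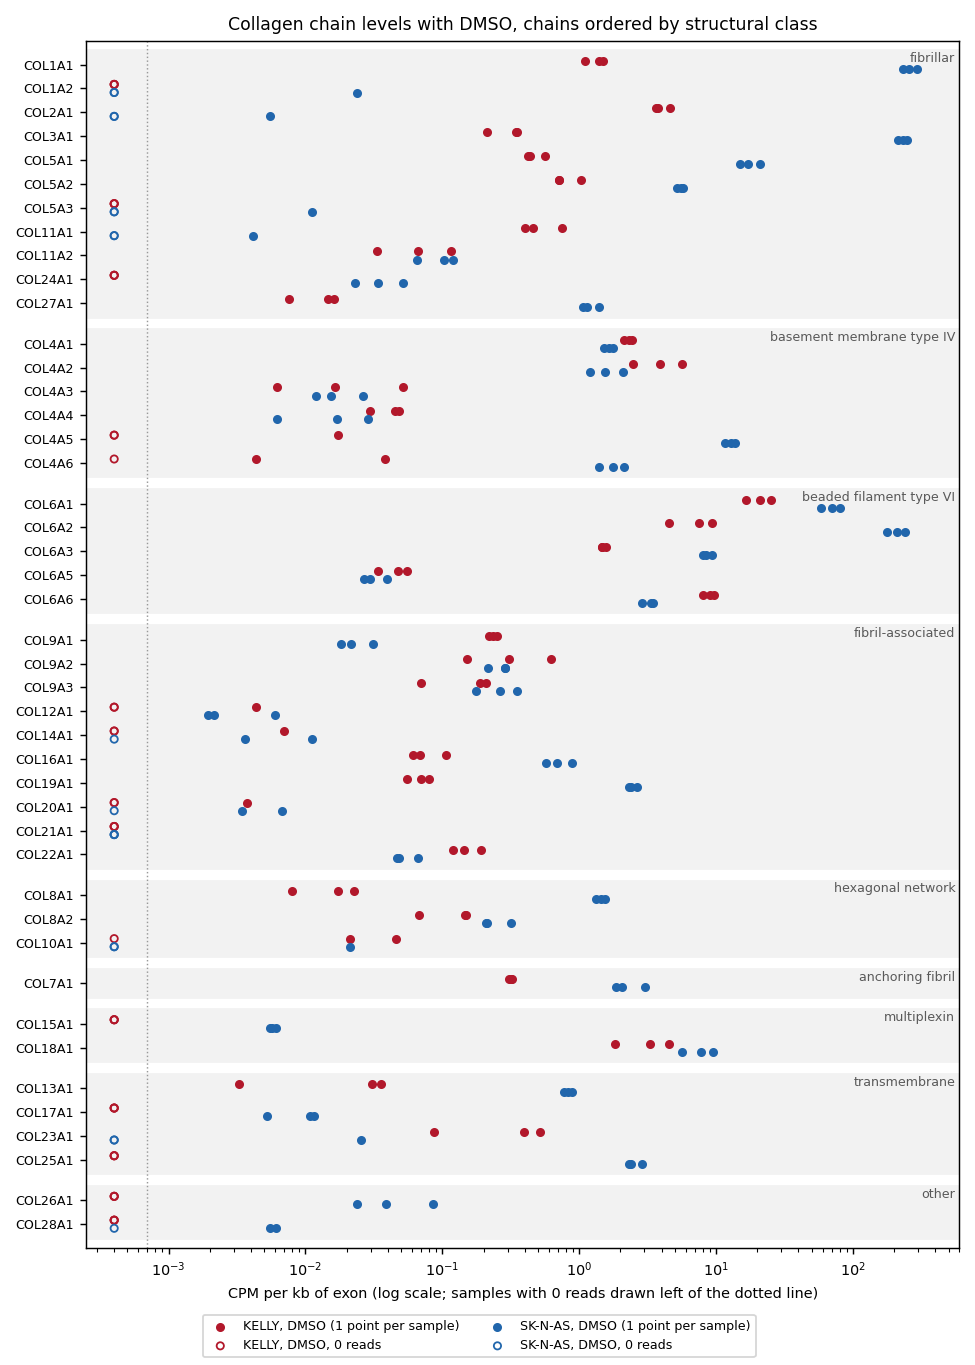
Level of each of the 44 collagen chains in the 3 DMSO samples of KELLY (red) and of SK-N-AS (blue), as CPM per kilobase of exon on a log axis, with samples at 0 reads drawn as open circles at the left. COL1A1, COL3A1 and COL6A2 lie highest in SK-N-AS, with means of 261, 230.4 and 209, whereas the highest KELLY chain, COL6A1, has a mean of 20.9.

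Chains were ranked in each line by CPM per kilobase of exon. In SK-N-AS with DMSO, COL1A1 stood at 261 ± 32.8 (SD, n = 3), COL3A1 at 230.4 ± 17.2 and COL6A2 at 209 ± 31.2, and the order of these 3 was within their spread. COL6A1 followed at 70.2 ± 11.1, COL5A1 at 17.6 ± 3.11, COL4A5 at 12.8 ± 1.09, COL6A3 at 8.61 ± 0.711, COL18A1 at 7.65 ± 1.92, COL5A2 at 5.49 ± 0.256 and COL6A6 at 3.24 ± 0.307. The samples of COL18A1 overlapped those of its neighbours COL6A3 and COL5A2, and the other neighbours did not overlap. COL1A1, COL3A1 and the type VI chains together took 89.4% to 89.7% of the collagen reads of these 3 samples.

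KELLY with DMSO had another order. COL6A1, a chain of type VI filaments, stood first at 20.9 ± 4.31, followed by COL6A6 at 8.93 ± 0.834, COL6A2 at 7.13 ± 2.44, COL4A2 at 4.02 ± 1.6 and COL2A1 at 4.01 ± 0.533. COL18A1 at 3.22 ± 1.34, COL4A1 at 2.28 ± 0.147, COL6A3 at 1.5 ± 0.0512, COL1A1 at 1.33 ± 0.198 and COL5A2 at 0.818 ± 0.184 completed the 10 highest. Neighbours from COL6A6 down to COL4A1 overlapped in their samples, as did COL6A3 with COL1A1, and the other neighbours did not. With the canonical transcript in place of all exons, the 10 highest of KELLY were again those 10, with COL4A2 at 12 above COL6A2 at 11 and COL6A6 at 9.07, and 9 of the 10 in SK-N-AS were kept, where COL4A2 took the place of COL6A6.

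Among the fibrillar chains, COL1A1 (chromosome 17, 50184101 to 50201632, minus strand) had 2665, 2300 and 2081 CPM with DMSO in SK-N-AS and 9.998, 13.4 and 12.7 CPM in KELLY. All SK-N-AS samples were far above all KELLY samples, with a log2 fold change of 7.58 (SE 0.192, adjusted p = 4.99e-08, edgeR). COL3A1 had 1674, 1557 and 1441 CPM against 2.38, 2.32 and 1.44 CPM, a log2 fold change of 9.54 (SE 0.251, adjusted p = 4.99e-08). COL5A1 and COL5A2, which set the width of type I fibres, were higher in SK-N-AS by 5.19 (SE 0.211) and 2.7 (SE 0.205) on the log2 scale. COL5A1 had 234.3, 189.7 and 165.9 CPM in SK-N-AS and 4.68, 6.26 and 4.86 in KELLY, and COL5A2 had 40.5, 41.8 and 38.1 CPM against 7.55, 5.21 and 5.21. COL27A1, also a fibrillar chain, had 1326 reads in the 3 SK-N-AS samples together and 14 in those of KELLY.

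The partner chain of type I collagen went against this pattern. Type I collagen is usually built from COL1A1 and COL1A2 chains together, and COL1A1 chains can also assemble without COL1A2. COL1A2 (chromosome 7, 94394895 to 94431227, plus strand) had 7, 0 and 0 reads in the SK-N-AS DMSO samples, in which COL1A1 had 72330, 57071 and 55041 reads. With Erastin it had 27, 1 and 2 reads in SK-N-AS, and over the 6 KELLY samples it had 0 in 5 and 2 in 1. The SK-N-AS Erastin sample with 27 reads also had 40 reads of HBB and 21 of HBA2, hemoglobin genes that had at most 2 reads in each of the other 5 SK-N-AS samples. The SK-N-AS DMSO sample with 7 COL1A2 reads had 0 of HBB and 0 of HBA2. KELLY DMSO replicate 1 and Erastin replicate 1 had 208 and 91 reads of HBB and 178 and 37 of HBA2, each with 0 reads of COL1A2. In the sample with 27 reads the COL1A1 level per kilobase was 2607 times that of COL1A2.

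**Figure D2:**
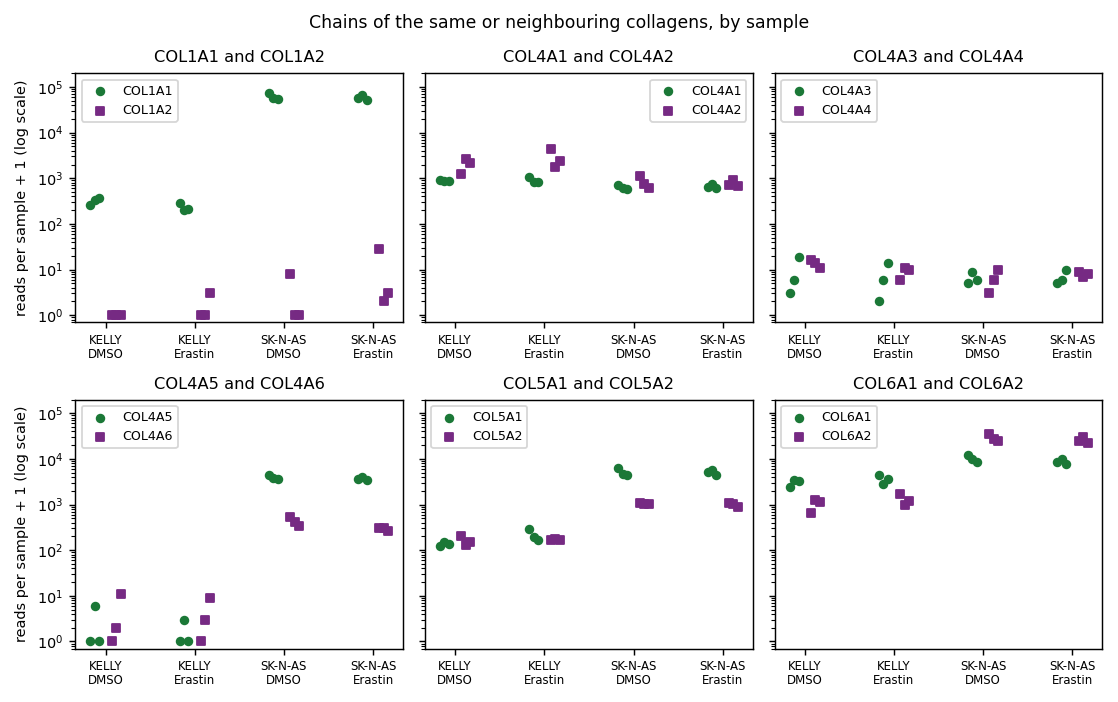
Reads per sample plus 1 (log axis) for pairs of chains in the 4 groups, with 3 samples per group and 1 point per sample. COL1A2 stays at 27 reads or fewer where COL1A1 has at least 52724, COL4A5 and COL4A6 are high only in SK-N-AS, and COL4A1 and COL4A2 have at least 588 and 615 reads in all 12 samples.

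Some chains known from cartilage were higher in KELLY, and others were not. COL27A1, given above, was higher in SK-N-AS, and COL10A1 had at most 5 reads in a KELLY DMSO sample. COL2A1, the main cartilage fibre chain, had 24.1, 30.8 and 25.2 CPM with DMSO in KELLY, from 640, 756 and 716 reads, and 1, 0 and 0 reads in SK-N-AS. The ratio of summed reads was 2159, with an exact 95% interval for counting error of 387.1 to 85330. COL11A1, a minor chain of the same fibres, had 180, 90 and 119 reads in KELLY against 0, 0 and 1, a ratio of 397.7 (exact 95% interval 70.96 to 15750). COL9A1, which coats those fibres, was also higher in KELLY, with 69, 56 and 69 reads against 6, 8 and 5 and a log2 fold change of -3.34 (SE 0.332, adjusted p = 3.34e-05, edgeR). The partners COL9A2, COL9A3 and COL11A2 did not follow: their log2 fold changes were -0.48 (SE 0.474), 0.73 (SE 0.452) and 0.4 (SE 0.493), and none passed the test. The lowest and highest read counts of these 3 partners over the 6 DMSO samples were 7 and 65.

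Type IV chains split by pair. COL4A1 and COL4A2, which build the common basement membrane network, were read in both lines. COL4A1 had 33.8, 35.4 and 31.1 CPM in KELLY and 25.9, 24.1 and 22.2 in SK-N-AS, lower in SK-N-AS without overlap (log2 fold change -0.51, SE 0.148, adjusted p = 0.0157, edgeR). That call was lost without SK-N-AS DMSO replicate 2 (adjusted p = 0.0765) or replicate 3 (adjusted p = 0.0729). COL4A2 had 47.8, 109.4 and 75.2 CPM in KELLY and 40.3, 29.7 and 23.2 in SK-N-AS (log2 fold change -1.34, SE 0.306, adjusted p = 0.0046). The KELLY sample with the lowest COL4A2 came near the highest SK-N-AS sample, and COL4A1 varied less between samples than COL4A2 did.

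COL4A5 and COL4A6, whose products form the network of some specialised basement membranes, were on in SK-N-AS and near 0 in KELLY. COL4A5 had 4447, 3796 and 3652 reads in SK-N-AS and 0, 5 and 0 in KELLY, a ratio of summed reads of 2327 (exact 95% interval 996.8 to 7167). COL4A6 had 535, 405 and 342 reads against 0, 1 and 10, a ratio of 114 (exact 95% interval 63.5 to 228.9). Within SK-N-AS, the COL4A5 level per kilobase was 6.5, 7.33 and 8.35 times that of COL4A6 with DMSO, whereas COL4A1 was 0.845, 1.07 and 1.26 times COL4A2. COL4A3 and COL4A4, the chains of the kidney glomerulus, had 2 to 18 and 2 to 15 reads over the 6 DMSO samples and were not tested.

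Type VI chains were among the highest of both lines but in different proportions. COL6A1 had 91.8, 139.5 and 115.6 CPM in KELLY and 448.1, 391.6 and 325.7 in SK-N-AS, and COL6A2 had 24.2, 50.1 and 39.8 against 1272, 1125 and 940.4. Both were higher in SK-N-AS without overlap, COL6A1 by 1.72 (SE 0.185, adjusted p = 5.45e-05, edgeR) and COL6A2 by 4.84 (SE 0.277, adjusted p = 1.17e-06) on the log2 scale. Per kilobase, COL6A1 was 3.66, 2.68 and 2.8 times COL6A2 in the KELLY DMSO samples and 0.339, 0.336 and 0.334 times in those of SK-N-AS. COL6A3, the largest chain of the filament, had 31.7, 31.7 and 33.6 CPM in KELLY and 202.5, 180.5 and 173 in SK-N-AS, a log2 fold change of 2.48 (SE 0.134). COL6A6, a chain similar to COL6A3, went the other way with 79.8, 71 and 85.6 CPM in KELLY and 29.5, 25.6 and 30.8 in SK-N-AS (log2 fold change -1.5, SE 0.15, adjusted p = 3.56e-05), and COL6A5 had 7 to 15 reads in all 6.

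The remaining classes mostly followed SK-N-AS. The fibril-associated chains COL16A1 and COL19A1 were higher there by 3.15 (SE 0.298) and 5.12 (SE 0.209) on the log2 scale, and COL7A1, the anchoring fibril chain, by 2.84 (SE 0.229). COL8A1, a short network chain of vessel and corneal matrix, had 1057 reads in the 3 SK-N-AS samples and 12 in those of KELLY. Of the membrane-spanning chains, COL13A1 had 752 and 21 reads, and COL25A1, known from neurons, had 566, 500 and 663 reads in SK-N-AS and 0 in all 6 KELLY samples, at least 186.9-fold higher against 3 reads per KELLY sample. COL23A1, of the same class, was higher in KELLY with 10, 55 and 49 reads against 3, 0 and 0 (ratio 38.9, exact 95% interval 13 to 191.2). COL22A1, a chain of muscle-tendon junctions, was higher in KELLY as well (log2 fold change -1.53, SE 0.354, adjusted p = 0.00501). COL18A1, which carries the endostatin fragment, had 15.6, 38.2 and 27.9 CPM in KELLY and 80.4, 65.8 and 47.9 in SK-N-AS, a log2 fold change of 1.22 (SE 0.312, adjusted p = 0.00838). Its exons share 1563 bp with SLC19A1 on the other strand, and the strand setting of the counting is not given in the sources used here.

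A group of 10 chains, among them COL10A1, COL12A1, COL14A1, COL15A1 and COL21A1, had at most 10 reads in each of the 12 samples. COL21A1 had 0 in all of them, where 0 reads in a single sample, taken alone, allow up to 3. COL5A3, COL15A1, COL21A1, COL24A1, COL25A1 and COL26A1 had 0 reads in the 6 KELLY samples. At the other end, 11 chains had over 100 reads in every KELLY sample and 19 in every SK-N-AS sample.

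Genes that make, trim, bind and degrade collagen were compared between the lines from lists that were chosen with earlier results known. Of 22 makers and modifiers, 21 were tested, 15 were higher in SK-N-AS and 1 was higher in KELLY, with a median log2 fold change of 1.17 beside -0.02 over all genes tested. The counts of this list and the next ones stand beside 30.3% of all genes called higher in SK-N-AS and 30.9% in KELLY. A listed gene that passed the filter through its high line alone, such as MMP1, MMP14 or ITGA10, had to differ. The list counts therefore describe the listed genes and do not weigh them against other genes. PLOD3, a lysyl hydroxylase that also adds sugar, CRTAP and P3H1, partners in prolyl 3-hydroxylation, were higher by 3.73 (SE 0.26), 1.46 (SE 0.122) and 2.16 (SE 0.194). The gene higher in KELLY was PLOD2, the lysyl hydroxylase of the telopeptides where crosslinks form. PLOD2 had 1896, 1313 and 1905 reads in KELLY and 0, 0 and 1 in SK-N-AS, a ratio of 5229 (exact 95% interval 938 to 206600), so that the line with the most fibrillar collagen RNA had almost no PLOD2 reads.

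Of 14 genes of processing and crosslinking, 13 were tested, of which 6 were higher in SK-N-AS and 4 in KELLY, with a median of 0.39. Beside the 30.3% and 30.9% of all genes, these 2 counts are no result about the list. LOXL2, a lysyl oxidase of collagen crosslinks, was higher in SK-N-AS by 7.24 (SE 0.253), SPARC, a collagen-binding chaperone, by 3.05 (SE 0.141) and PCOLCE, an enhancer of C-propeptide removal, by 2.35 (SE 0.314). Its relative PCOLCE2 had 539, 521 and 632 reads in KELLY and 1, 0 and 0 in SK-N-AS, and ADAMTS2, the N-propeptidase of fibrillar collagens, had 664, 912 and 1050 against 11, 20 and 13. LOX, the founding lysyl oxidase, was higher in KELLY by a smaller margin (log2 fold change -1.15, SE 0.32, adjusted p = 0.0124, edgeR). Of 10 receptors, 8 were tested, 7 were higher in SK-N-AS and 1 in KELLY, with a median of 2.5. ITGA2, the alpha subunit of a collagen-binding integrin, had 9940, 9308 and 10325 reads in SK-N-AS and 18, 9 and 16 in KELLY. ITGB1, its beta partner, and ITGA11, which binds fibrillar collagen, were higher in SK-N-AS by 2.41 (SE 0.147) and 3.01 (SE 0.201), while DDR2, a receptor tyrosine kinase for fibrillar collagen, was higher in KELLY (-0.6, SE 0.137, adjusted p = 0.00452). Of 8 degradation genes, 6 were tested and 5 were higher in SK-N-AS, with a median of 2.66. These included MMP14, a membrane-bound collagenase, with 11058 against 22 reads, MMP2, a gelatinase, by 3.08 (SE 0.156), and MMP1, an interstitial collagenase, with 33, 28 and 24 reads against 0 in all 6 KELLY samples, at least 9.21-fold higher against 3 reads per sample.

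The next comparison asked which chains changed with Erastin in SK-N-AS. Of the 24 chains tested, out of 44, 22 had a lower fitted level with Erastin, and the median log2 fold change was -0.27 beside -0.01 over all genes tested, of which 52.4% were below 0. In 12 of the 24 chains each Erastin sample was below each DMSO sample in CPM, a pattern of 7.31% of the 16095 genes tested, and in 0 of the 24 each Erastin sample was above, a pattern of 7.64% of genes. None of the 24 passed an adjusted p under 0.05 in edgeR, where 0.199% of genes passed downwards, and 11 reached p of 0.05 or less before adjustment, all of them lower, as did 4.87% of genes. DESeq2 called 2 of them lower, COL13A1 and COL4A6, where it called 85 of 30711 genes lower. After the trend of each sample with the GC content of genes was removed, 9 chains passed an adjusted p under 0.05, all of them lower, where 3.19% of genes did so. Without SK-N-AS DMSO replicate 3, 10 of 26 passed, again all lower, where the share of all genes called lower rose as well, to 3.44% of 16433, and the other 5 leave-outs gave 0. DMSO replicate 1 had higher values of GC-rich genes (Spearman correlation of GC content with the log2 ratio to the mean of the line, across 11931 genes, of 0.767) and DMSO replicate 3 lower ones (-0.747).

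**Figure D3:**
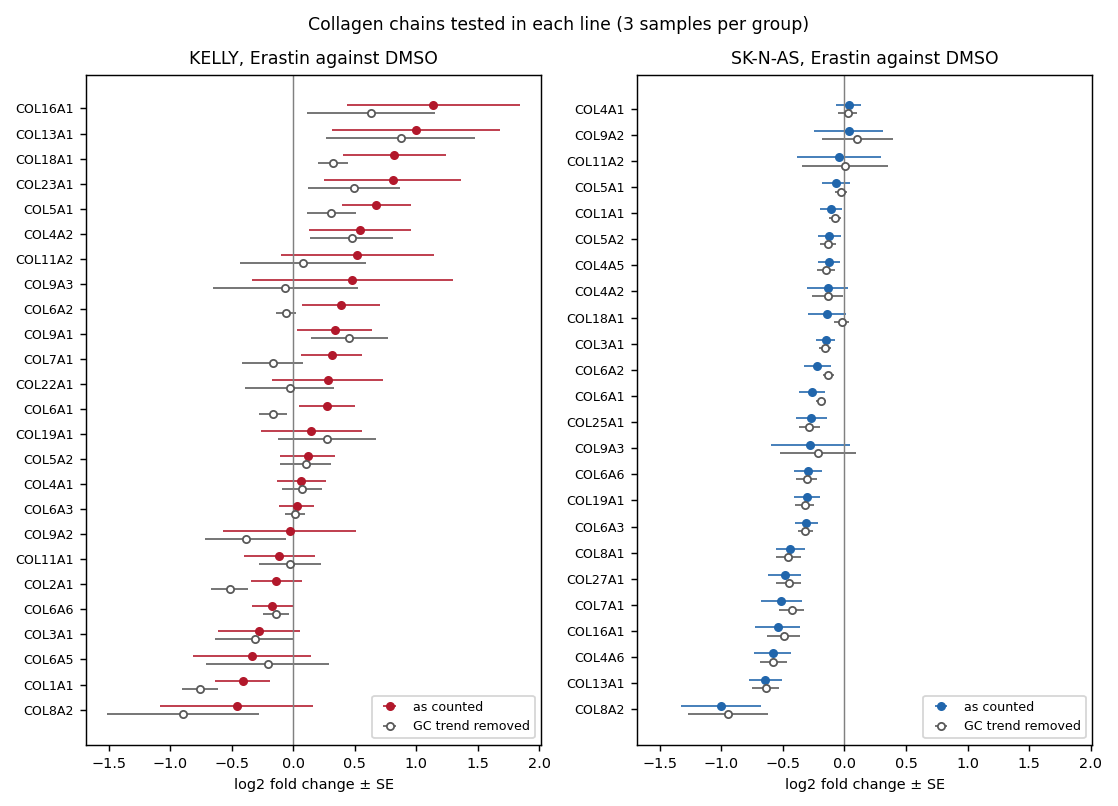
Log2 fold change of Erastin against DMSO with its SE for the 25 chains tested in KELLY and the 24 tested in SK-N-AS (3 samples per group), as counted (filled) and with the GC trend of each sample removed (open). In SK-N-AS 22 of 24 filled points lie below 0 and the open points lie close to them, whereas in KELLY the median moves from 0.27 to -0.02.

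COL13A1, a membrane-spanning chain of cell contacts and the neuromuscular junction, had the smallest p. It had 10.3, 9.59 and 8.88 CPM with DMSO and 6.06, 6.65 and 5.35 with Erastin, and fell at the cutoff that the study used for its genes, a fold of 1.5 or more with p no larger than 0.05 before adjustment (log2 fold change -0.64, SE 0.135, adjusted p = 0.061, edgeR). The adjusted p with the GC trend removed was 0.00307. COL8A2, a network chain, was the other one at that cutoff, with 40, 24 and 26 reads against 17, 14 and 15 (log2 fold change -1, SE 0.325, adjusted p = 0.314), and the cutoff was met downwards by 1.33% of all genes. Neither gene had overlapping groups, and COL8A2 rested on few reads.

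COL4A6 had 19.7, 16.3 and 12.9 CPM with DMSO and 11.2, 10.6 and 10.4 with Erastin, with a log2 fold change of -0.58 (SE 0.149, adjusted p = 0.153). With the GC trend removed its adjusted p was 0.00642. Its head-to-head partner COL4A5 had 163.8, 153 and 138.1 CPM against 133.6, 139 and 136.7, with overlapping groups and a log2 fold change of -0.13 (SE 0.0862, adjusted p = 0.773). The COL4A5 to COL4A6 ratio per kilobase was 9.36, 10.3 and 10.3 with Erastin, above the 3 DMSO ratios given above. COL4A1 and COL4A2 had log2 fold changes of 0.03 (SE 0.104) and -0.14 (SE 0.168) and overlapping groups.

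Another 7 chains passed an adjusted p under 0.05 once the GC trend was removed and missed it as counted. COL8A1 had 12.4, 14.6 and 13.6 CPM with DMSO and 8.92, 10.2 and 10.2 with Erastin (GC-corrected log2 fold change -0.46, SE 0.0995, adjusted p = 0.014, edgeR). COL27A1 had 19.5, 16 and 15.1 against 13.3, 11.6 and 10.7 (-0.45, SE 0.0996, adjusted p = 0.0142). COL6A3 had 202.5, 180.5 and 173 against 154, 153.6 and 132.7 (-0.32, SE 0.0637, adjusted p = 0.00825). All 3 had groups that did not overlap. COL7A1 (-0.43, SE 0.101), COL16A1 (-0.49, SE 0.133), COL19A1 (-0.32, SE 0.0748) and COL6A1 (-0.19, SE 0.0424) were the others. COL6A1 with 448.1, 391.6 and 325.7 CPM against 314.6, 335.5 and 304.5 was the one of the 7 whose groups overlapped.

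The most abundant chains had small fold changes. COL1A1 had 2665, 2300 and 2081 CPM with DMSO and 2154, 2206 and 2043 with Erastin (log2 fold change -0.11, SE 0.0901, adjusted p = 0.821), and its groups overlapped. COL3A1 had 1674, 1557 and 1441 against 1377, 1387 and 1360 (-0.15, SE 0.0749, adjusted p = 0.602), with each Erastin sample below each DMSO sample. COL6A2 with 1272, 1125 and 940.4 against 917.3, 1029 and 869.9 CPM (-0.22, SE 0.106), COL5A1 with 234.3, 189.7 and 165.9 against 189.5, 193.4 and 169.6 (-0.07, SE 0.117) and COL18A1 (-0.14, SE 0.153) had overlapping groups. The 20 chains not tested in SK-N-AS had at most 27 reads in a sample.

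Of the other collagen genes, 1 passed an adjusted p under 0.05 with Erastin as counted. It did so in SK-N-AS, where 74 of 16095 genes passed upwards. DDR2, the fibrillar collagen receptor, had 6388, 6060 and 7136 reads with DMSO and 11365, 13710 and 11941 with Erastin, a rise of 0.87 on the log2 scale (SE 0.0837, adjusted p = 0.000238, edgeR). In KELLY it had 10846, 8090 and 10492 reads against 7847, 12738 and 11865, with overlapping groups and a log2 fold change of 0.16 (SE 0.188). The difference between the lines was 0.7 (SE 0.209, adjusted p = 0.811), or 0.55 with an adjusted p of 0.0368 once the GC trend was removed. The makers, the processing genes and the degradation genes had no adjusted call in either line as counted, with medians of -0.02, -0.16 and -0.11 in SK-N-AS and 0.19, 0.11 and 0.11 in KELLY. With the GC trend removed, 1 maker, 2 processing genes and 1 receptor passed as lower in SK-N-AS, where 3.19% of all genes did. At p of 0.05 or less before adjustment, 2 of 20 makers, 3 of 12 processing genes and 0 of 6 degradation genes were lower in SK-N-AS, beside the 4.87% of all genes given above. In KELLY 1 of 20 makers and 1 of 14 processing genes were higher, where 1.59% of 16258 genes were, and these single genes are no result about their lists.

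In KELLY no collagen chain passed an adjusted p under 0.05 with Erastin in edgeR or DESeq2, where edgeR called 0.00615% of 16258 genes, a single gene. Of the 25 chains tested, out of 44, 17 had a fitted level above 0 and 8 below, with a median log2 fold change of 0.27 beside 0.01 over all genes. In 0 of the 25 did the groups separate in either direction, against 4.35% of genes upwards and 4.21% downwards. COL5A1 was the 1 chain at the study's cutoff, which 1.29% of genes met upwards, and the only one with p of 0.05 or less before adjustment. It had 4.68, 6.26 and 4.86 CPM with DMSO and 11.6, 7.61 and 6.14 with Erastin (log2 fold change 0.68, SE 0.28, adjusted p = 0.77). Its Erastin replicate 3 lay below its DMSO replicate 2.

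These KELLY values moved most with 1 sample. Erastin replicate 1 had a median log2 ratio of 0.53 to the mean of the 6 KELLY samples over the 25 chains, and 0.78 over the 14 of them with a GC content above 55%. COL4A2 had 47.8, 109.4 and 75.2 CPM with DMSO and 181.9, 69.5 and 86.7 with Erastin, COL18A1 had 15.6, 38.2 and 27.9 against 76, 30 and 38.2, and COL6A2 had 24.2, 50.1 and 39.8 against 68.2, 37.6 and 43.4. In each of these 3 the first Erastin sample was the highest of the 6 and the first DMSO sample the lowest. Over 12103 genes the Spearman correlation of GC content with a sample's log2 ratio to that mean was 0.866 in Erastin replicate 1 and -0.833 in DMSO replicate 1. These were also the 2 KELLY samples with more than 3 reads of HBB or HBA2, and the part of this in the chains was not tested. Without Erastin replicate 1 the median of the chains was -0.1, and with the GC trend removed it was -0.02. Leaving out DMSO replicate 1 gave a median of 0.145. No chain met the study's cutoff without that sample or without DMSO replicate 3. COL6A1, the highest chain of the line, had 91.8, 139.5 and 115.6 CPM against 179.1, 110.6 and 131.4 and COL6A6 had 79.8, 71 and 85.6 against 62.4, 82.8 and 66.7, with overlap in both.

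**Figure D4:**
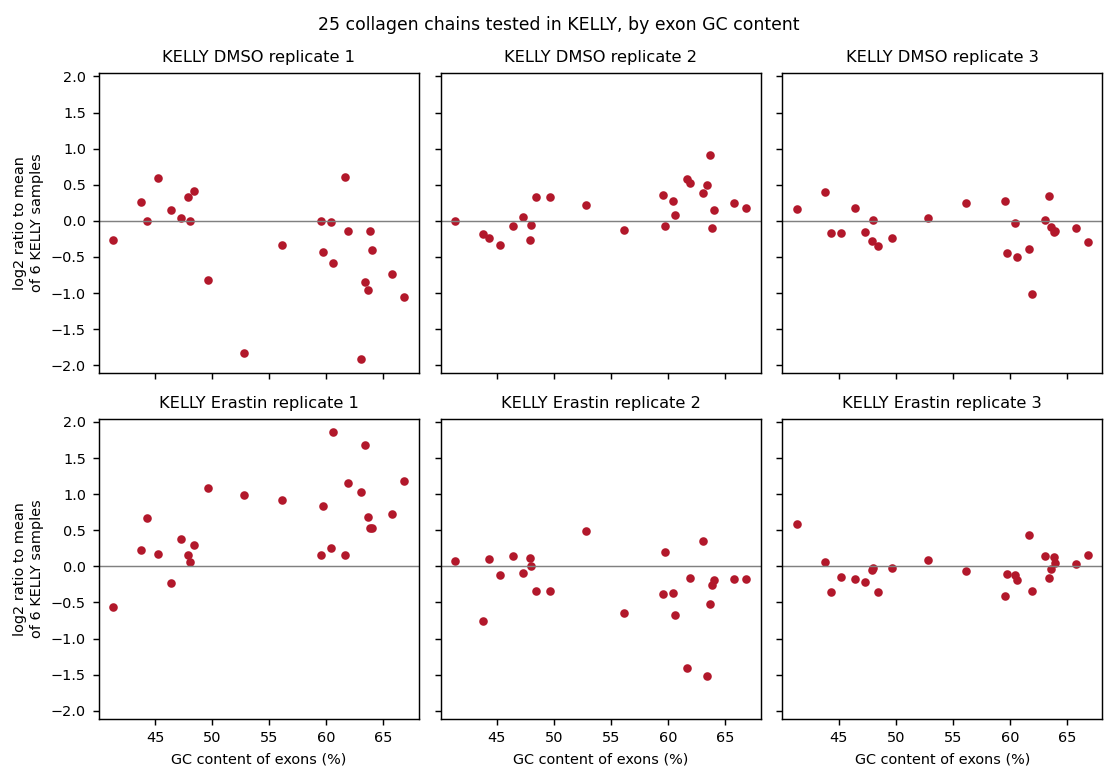
Log2 ratio of each of the 25 chains tested in KELLY to its mean over the 6 KELLY samples, by the GC content of its exons in percent, with 1 panel per sample. Chains above 55% GC lie high in Erastin replicate 1 (median 0.78) and low in DMSO replicate 1 (median -0.41).

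The fibrillar chains of KELLY read differently on the corrected scale. COL1A1 had 9.998, 13.4 and 12.7 CPM with DMSO and 11.4, 7.96 and 7.85 with Erastin, a log2 fold change of -0.41 (SE 0.22) as counted and of -0.76 (SE 0.148, adjusted p = 0.179, edgeR) with the GC trend removed. On the corrected scale COL1A1 was the 1 chain at the study's cutoff and COL5A1, at 0.31 (SE 0.202), was not. COL2A1 had 24.1, 30.8 and 25.2 CPM against 29.9, 19.8 and 23.5, with -0.14 (SE 0.208) as counted and -0.52 (SE 0.15, adjusted p = 0.563) corrected. COL4A1, COL6A3 and COL5A2 had log2 fold changes of 0.06 (SE 0.199), 0.03 (SE 0.143) and 0.12 (SE 0.227) and the 19 chains not tested had at most 18 reads in a sample.

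The last comparison asked whether the chains answered Erastin differently in the lines. Over 31 chains tested in 1 fit of all 12 samples, 0 passed an adjusted p under 0.05 for the interaction in edgeR or DESeq2 (edgeR called 0.00548% of 18239 genes), and 6 had p of 0.05 or less before adjustment, each with the lower change in SK-N-AS, as did 2.47% of all genes. These were COL13A1, COL7A1, COL9A1, COL5A1, COL6A3 and COL16A1. COL13A1 differed by -1.64 (SE 0.559, adjusted p = 0.811), with 1, 10 and 10 reads with DMSO and 18, 13 and 10 with Erastin in KELLY. COL7A1 differed by -0.83 (SE 0.308, adjusted p = 0.811) and COL5A1 by -0.75 (SE 0.303, adjusted p = 0.811). With the GC trend removed these became -0.28 (SE 0.254, adjusted p = 0.775) and -0.35 (SE 0.176, adjusted p = 0.663), and neither had p of 0.05 or less before adjustment. On that scale 6 chains had such a p with the lower change in SK-N-AS, as did 3.59% of all genes, and 1 with the higher change, as did 4.22%. The 1 chain was COL1A1, which had the smallest p of the 31, with 0.68 (SE 0.129, adjusted p = 0.0894) in place of 0.3 (SE 0.22, adjusted p = 0.811) as counted. A difference between the lines in the Erastin change of a collagen chain was thus not shown by this test, and the lines also differed in dose.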

How the data were processed

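Sequencing reads of 12 RNA-Seq libraries were trimmed with Trimmomatic, aligned to GRCh38 and quantified with HTSeq on a GENCODE annotation, per the labels and the study's methods. The aligner and the strand setting are not given in the sources used here. The authors deposited raw counts per gene for each line, without normalization or pooling, and genes of all biotypes were kept here. Total counts per sample lay between 24169796 and 29835670, and intervals and floors (3 reads) cover counting error only.

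Tests were run in R 4.3.3 with edgeR 4.0.16 (filterByExpr, TMM scaling, quasi-likelihood test, Benjamini-Hochberg adjustment over all genes tested), separately for the DMSO samples of both lines, for each line with and without Erastin, and for the interaction over 12 samples. SE is the log2 fold change divided by the square root of F. CPM uses TMM-scaled totals of the 12 samples, and lengths and GC content come from GENCODE 44 exons. The GC correction fits a loess curve (span 0.5, degree 2) of each sample's log ratio on GC content and uses it as an offset. A GC content was found for 87.7% (KELLY fit) and 88.4% (SK-N-AS fit) of genes. Fits were tested on simulated counts. Alternatives were DESeq2 1.42.0, RLE or plain library-size scaling, other filters, the replicate block, the GC correction, all samples in 1 fit, a fold limit of 1.5 inside the model and each sample left out. The members, gene lists and rules for named genes were chosen with earlier results of these data known. Values in each sample were given for the 10 highest chains of either line, chains called with Erastin and head-to-head pairs, and other chains and genes were named for their part in a class or after their values were seen. Of the other collagen genes, those called with Erastin as counted and up to 3 in each direction per list, by p between the lines, were named.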

Additional observations from a re-analysis of the deposited data

How the results depend on the processing

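Between the lines, the 25 calls kept their direction under every alternative that tested them, and COL4A1 alone lost its call, under the replicate block (adjusted p = 0.0643) and without SK-N-AS DMSO replicate 2 or 3. With at least 10 counts in every sample fewer chains could be tested, and 11 were higher in SK-N-AS and 4 in KELLY. Of the 13327 genes tested under that filter, 3777 were higher in SK-N-AS and 3831 in KELLY. In KELLY, the number of chains at the study's cutoff, 1 as reported, was 2 with DESeq2 or with all 12 samples in 1 fit, 3 with no filter on low counts, 0 with the replicate block, 0 with the fold limit inside the model, and 0 to 2 with each sample left out. Over all genes, 209 met that cutoff upwards as reported and, in that order up to the fold limit, 295, 472, 636, 82 and 70. With each KELLY sample left out, 112 to 734 genes met it upwards and 69 to 262 downwards. COL4A2 in KELLY changed sign without Erastin replicate 1 (-0.0040) and reached 0.86 with another sample left out. In SK-N-AS the number of chains at that cutoff, 2 as reported, was 1 with the fold limit inside the model and 1 to 5 with each sample left out. Over all genes, 214 met it downwards as reported, 72 with the fold limit and 207 to 278 with each sample left out. The number of chains with an adjusted p under 0.05 in SK-N-AS, 0 as reported, was 2 with DESeq2, 3 with no filter, 4 with the replicate block, 9 with the GC correction, 13 with both and 0 to 10 with each sample left out. Calls over all genes moved as well. Genes called lower numbered 32 as reported and, in the same order, 85, 129, 162, 514, 764 and 6 to 566. The cause was not tested. DDR2 lost its call in SK-N-AS with the fold limit inside the model (adjusted p = 0.226). Whether replicate numbers pair the samples was not settled. Deviations of same-numbered samples from their group means correlated between -0.488 and 0.122 within a line. These values also carry the GC trend of each sample, so they cannot decide it. The samples with more than 3 reads of HBB or HBA2 were all numbered replicate 1. For the interaction, 0 chains passed under each alternative. Chains with few reads were left out by the filter on low counts. With no filter, 43 of 44 chains were tested between the lines, 38 in KELLY and 43 in SK-N-AS, and 19 in place of 17 were higher in SK-N-AS than in KELLY with DMSO.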
